A study of Mus musculus with 2 samples.

Results

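Imprinted genes were followed through ChIP-seq of Msl1 and Nsl1 in mouse embryonic stem cells (mESCs). A list of 38 genes known to be imprinted in the mouse was used, and 37 of them were found in the mm9 gene annotation. Of these 37 genes, 22 are known to be expressed from the paternal allele and 14 from the maternal allele, and Gnas uses either allele depending on the isoform. The missing gene, the long noncoding RNA Kcnq1ot1, was placed by the sequence of its promoter and is described on its own. The 37 genes have 109 annotated transcription start sites (TSSs), with a single TSS at 17 genes and several at 20, and each gene is represented by the TSS with the most annotated transcripts unless another one is named.

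Chromatin came from wild type (wt) male mESCs of the E14 line, with the 129P2/OlaHsd genetic background and at passage P26. The cells were untreated, and no other genotype or treatment was compared. They had been grown on gelatine with CD1 feeder cells and were then moved to feeder-free plates. A single library was sequenced per antibody, from polyclonal rabbit antibodies raised against a fragment of Msl1 or of Nsl1. After 1 read was kept per position and strand, the Msl1 library held 19483142 reads and the Nsl1 library 24883001 reads. With 1 library per antibody there is no replicate error, so no p-value is given. All intervals are exact 95% intervals. Those of ratios cover the counting error of reads only. Those of shares of genes take the genes as independent, which genes of a shared cluster are not. The line is inbred, so reads of the maternal and of the paternal allele cannot be told apart, and each value is the sum of both. No Input was used here. As a check of the cells, 6 genes active in mESCs, among them Nanog and Pou5f1, had Msl1 ratios from 1.99 to 4.85, and 5 genes of other cell types, among them Alb and Krt14, had ratios from 0.59 to 1.32. For Nsl1 the same sets spanned 0.59 to 2.42 and 0.68 to 1.52, so the Nsl1 ratios of both sets overlapped.

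Imprinted genes are expressed from only one parental allele. The choice is set in the germ line by DNA methylation of CpG-rich imprinting control regions, some of which are promoters, and many imprinted genes lie in clusters that share such a region. As a class they are known for their part in fetal and placental growth, metabolism and brain function. Msl1 and Nsl1 are scaffold subunits of the MSL and NSL complexes, which both contain the histone H4 acetyltransferase Mof. A promoter with a methylated and an unmethylated allele in the same nucleus therefore differs from the common CpG island promoter. In the list used here, 12 genes are assigned a germline methylated promoter, and methylation was not measured in these cells. The comparison asked how much of either protein the promoters of the listed genes carried. Whether methylation of an allele plays a part in these amounts was not tested.

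Each value is a ratio: the reads within 500 bases of a TSS, a window of 1 kb, divided by the reads per kb of that library at a distance of 5 to 50 kb from the TSS in either direction. A ratio of 1 is thus the level of the surroundings, and 3 was used as a threshold. At this threshold 11 of the 37 imprinted genes were counted for Msl1, and 24.0% of the 21730 protein-coding genes measured in the same way were counted. For Nsl1 there were 6 of 37 imprinted genes, and the share of all genes was 24.3%. Both proteins reached the threshold at 3 genes, Mkrn3, Ube3a and Igf2r, and 12.0% of all genes did so. The imprinted genes made up 29.7% (15.9 to 47.0) for Msl1 and 16.2% (6.19 to 32.0) for Nsl1. These intervals take the genes as independent, so no difference from all genes is claimed. In the medians the imprinted genes lay above all genes for Msl1, at 2.57 against 1.87, and below them for Nsl1, at 1.41 against 1.73. The Msl1 ratio was higher than the Nsl1 ratio at 29 of the 37 imprinted genes, which is 78.4% (61.8 to 90.2), and at 46.5% of all genes. The Msl1 count depended most on the settings. It was 6 when repeated reads were kept, where 24.0% of all genes were counted. With a window of 2000 bases on each side it was 3, where 6.36% of all genes were counted. Against the mean level of the genome it was 22, where 43.2% were. Genes are not replicates, so these shares describe the list in this pair of libraries.

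**Figure D1:**
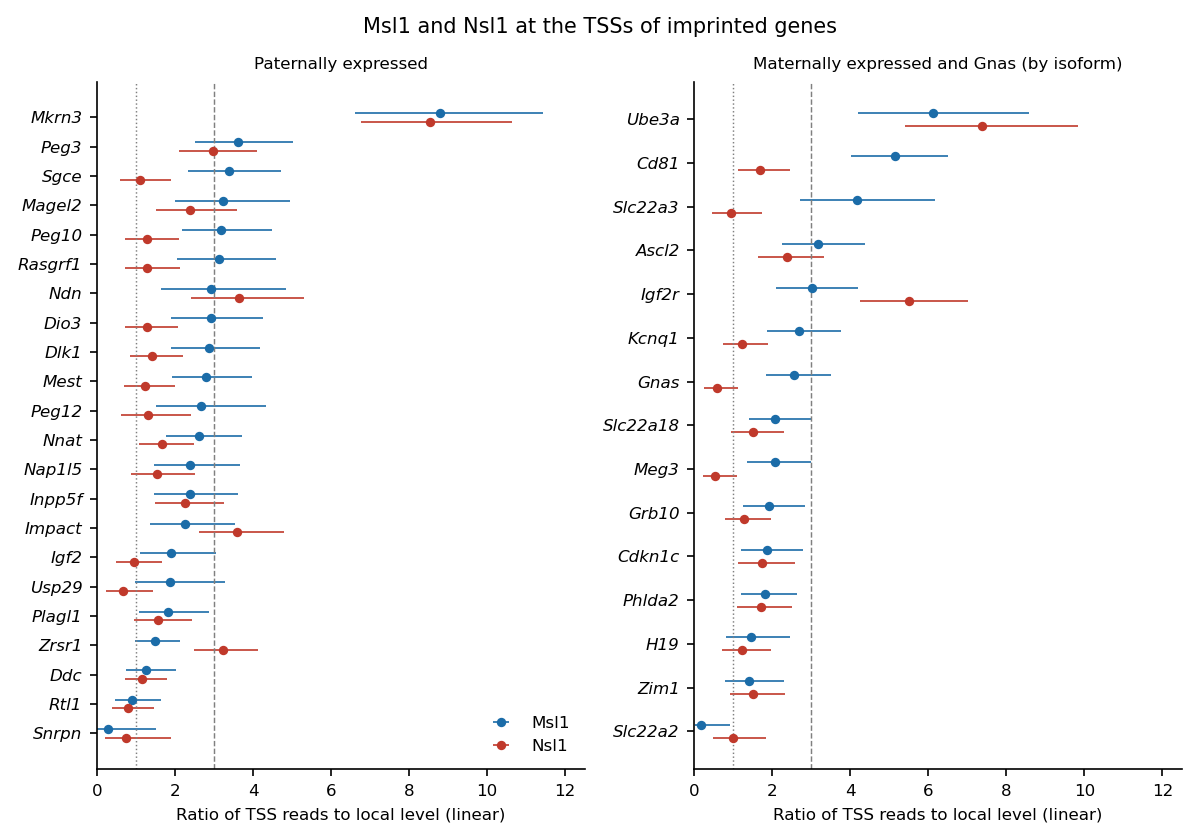
Ratio of reads within 500 bases of the TSS to the local level (linear axis) for the 37 imprinted genes, with Msl1 in blue, Nsl1 in red and bars for exact 95% Poisson intervals. The dashed line marks a ratio of 3 and the dotted line a ratio of 1; Mkrn3 stands highest for both proteins, with 8.79 and 8.54, and 23 genes lie left of the dashed line for both.

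The low Nsl1 ratios were seen most clearly where promoters are rich in CpG. A promoter was called CpG-rich when the CpGs within 500 bases of the TSS were at least 0.6 of the number that its C and G content predicts. This held for 24 imprinted genes and for 10273 protein-coding genes, with medians of 69.5 and 73 CpGs in the window. The median Nsl1 ratio was 1.63 at CpG-rich imprinted genes and 2.70 at CpG-rich genes as a whole. A ratio of at least 3 was found at 5 of the 24 imprinted genes, or 20.8% (7.13 to 42.2), and at 43.8% of CpG-rich genes. With a window of 2000 bases on each side this contrast was lost, with 2 of 24 against 7.26%, while the medians, 1.32 and 1.63, kept their order. At the other end, 10 of the 24 had an Nsl1 ratio under 1.5, or 41.7% (22.1 to 63.4), and 17.7% of CpG-rich genes did. These 10 genes were Grb10, Kcnq1, Mest, Dlk1, Dio3, Rasgrf1, Peg10, Sgce, Peg12 and Slc22a3. Peg10 and Sgce hold nearly the same reads, and both are counted. Low Nsl1 ratios are not particular to imprinted genes, since 1815 CpG-rich protein-coding genes lay under 1.5. Per the paper, most genes bound by NSL have housekeeping functions. The genes were not matched by expression or function, so whether imprinting plays a part in the low Nsl1 ratios was not tested.

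For Msl1 the CpG-rich imprinted genes lay near their class with the settings used here. Their median ratio was 2.89 against 2.82 for all CpG-rich genes, and 10 of 24, or 41.7% (22.1 to 63.4), reached 3 where 44.6% of the class did. With all reads kept, 6 of the 24 reached 3 against 44.7% of the class, and against the mean of the genome the medians were 3.75 and 4.36. The difference in Nsl1 was also seen when the CpG content was divided more finely. Between 0.6 and 0.8 of the predicted CpGs, 14 imprinted genes had a median Nsl1 ratio of 1.63 and 5638 protein-coding genes one of 2.68. Between 0.8 and 1, the medians were 1.68 for 9 imprinted genes and 2.77 for 4204 protein-coding genes. The 13 imprinted genes with fewer CpGs had medians of 1.88 for Msl1 and 1.00 for Nsl1, and the protein-coding genes with fewer CpGs had 1.23 and 1.28. The CpG classes were compared after other results were known. Per the paper, the Msl1 and Nsl1 libraries were prepared with different kits. Nsl1 had shorter reads than Msl1 (36 and 50 bases) and shorter fragments (129 and 206 bases). The parts of kit, fragment length and read length cannot be told apart from that of the antibody, and none was tested.

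**Figure D2:**
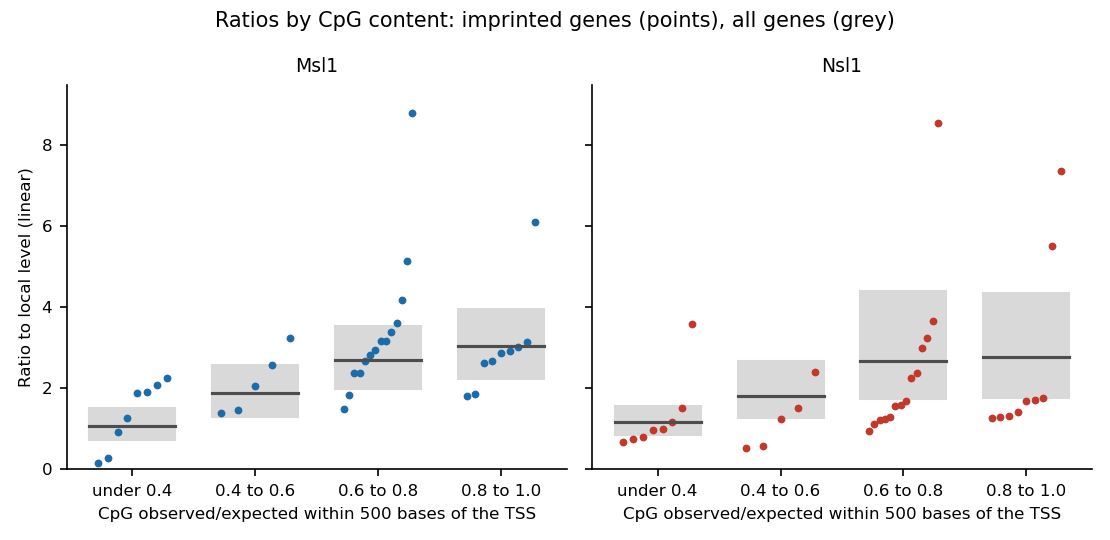
Msl1 (left) and Nsl1 (right) ratios in 4 classes of CpG observed/expected; points are imprinted genes, spread sideways by rank, and grey boxes and lines are the quartiles and medians of all protein-coding genes. Grb10, with more CpGs than predicted, is not drawn; from 0.6 upwards most Nsl1 points lie below the grey median, while Msl1 points lie on both sides of it.

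Mkrn3, a makorin RING finger gene of the Prader-Willi region, carried the highest ratios of both proteins to the local level. Against the mean level of the whole genome it was still the highest for Nsl1, at 8.54 times, but for Msl1 it was second to Cd81, at 7.49 against 9.67 times. Within 500 bases of its TSS at position 69565039 of chromosome 7 (mm9, minus strand), 55 Msl1 reads gave a ratio of 8.79 (6.62 to 11.4) and 80 Nsl1 reads gave 8.54 (6.77 to 10.6). These ratios were higher than those of 99.9% and 97.1% of protein-coding genes. Ube3a, the E3 ubiquitin ligase of Angelman syndrome at the other end of the region, followed with 33 Msl1 reads and a ratio of 6.11 (4.21 to 8.58), and with 46 Nsl1 reads and a ratio of 7.37 (5.39 to 9.83). Ube3a is imprinted in neurons and is expressed from both alleles in most other cells. The Mkrn3 and Ube3a intervals overlapped for both proteins. Igf2r, the receptor that clears Igf2, had 35 Msl1 reads (ratio 3.01, 2.10 to 4.18) and 65 Nsl1 reads (ratio 5.51, 4.25 to 7.02). Its Msl1 value lay at the threshold, and its Msl1 and Nsl1 intervals within 500 bases did not overlap. Over 2 kb on each side its ratios were 2.04 (1.65 to 2.50) and 2.71 (2.26 to 3.22), and these intervals overlapped.

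The 250 bases before the RefSeq start of these 3 genes are shown because both proteins reached the threshold there. They are written 5′ to 3′ on the strand of the gene, in the RefSeq promoter table of GRCm38, each was found once and unchanged in mm9, and capitals mark CpGs.
Mkrn3 (chr7:69565040-69565289, minus strand): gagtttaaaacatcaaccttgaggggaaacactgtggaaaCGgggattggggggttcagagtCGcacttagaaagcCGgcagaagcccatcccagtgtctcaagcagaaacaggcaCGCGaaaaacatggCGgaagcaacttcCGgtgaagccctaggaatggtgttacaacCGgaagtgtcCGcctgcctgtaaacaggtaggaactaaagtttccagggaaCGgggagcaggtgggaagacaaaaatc
Ube3a (chr7:66483870-66484119, plus strand): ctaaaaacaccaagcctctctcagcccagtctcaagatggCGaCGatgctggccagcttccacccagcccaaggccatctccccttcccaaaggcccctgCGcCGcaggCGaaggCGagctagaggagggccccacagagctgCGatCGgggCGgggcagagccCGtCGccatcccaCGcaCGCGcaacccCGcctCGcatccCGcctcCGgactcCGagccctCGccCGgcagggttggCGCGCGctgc
Igf2r (chr17:12962573-12962822, minus strand): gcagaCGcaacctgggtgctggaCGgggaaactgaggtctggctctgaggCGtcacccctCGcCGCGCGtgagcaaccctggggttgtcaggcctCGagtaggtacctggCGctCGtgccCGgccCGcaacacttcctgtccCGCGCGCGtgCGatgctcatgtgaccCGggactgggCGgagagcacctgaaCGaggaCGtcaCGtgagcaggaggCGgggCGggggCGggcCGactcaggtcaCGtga
They hold 10, 24 and 27 CpGs, so among these 3 the promoter with the most reads of both proteins has the fewest. The Mkrn3 stretch contains the letters CCGGAAGT, a core recognised by ETS family factors, 2 times when both strands are read. Of 32544 RefSeq promoters, 2.90% hold these letters at least 1 time in the same 250 bases and 0.175% at least 2 times, and none of the 30 other imprinted genes with a RefSeq promoter holds them. These letters were searched after the sequence had been seen.

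The reads of both proteins were placed differently around these TSSs. The window of 300 bases with the most reads was centred before the TSS for Nsl1 and after it for Msl1. At Mkrn3 it was centred 100 bases upstream for Nsl1, with 55 reads, and 250 bases downstream for Msl1, with 27 reads. At Ube3a the centres lay 100 bases upstream and 500 bases downstream, and at Igf2r 150 bases upstream and 600 bases downstream. Among the imprinted genes at the threshold, the fullest Msl1 window was centred downstream of the TSS at 9 of 11. The same held at 79.3% of all genes at the threshold for Msl1. The fullest Nsl1 window was centred upstream at 5 of 6, and at 47.2% of all genes at the threshold for Nsl1. At Mkrn3, Ube3a, Igf2r and Impact this Nsl1 window reached the TSS, so its centre does not place all reads upstream. The threshold itself selects for reads close to the TSS. The exceptions for Msl1 were Sgce, whose upstream side is the body of Peg10, and Rasgrf1.

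**Figure D3:**
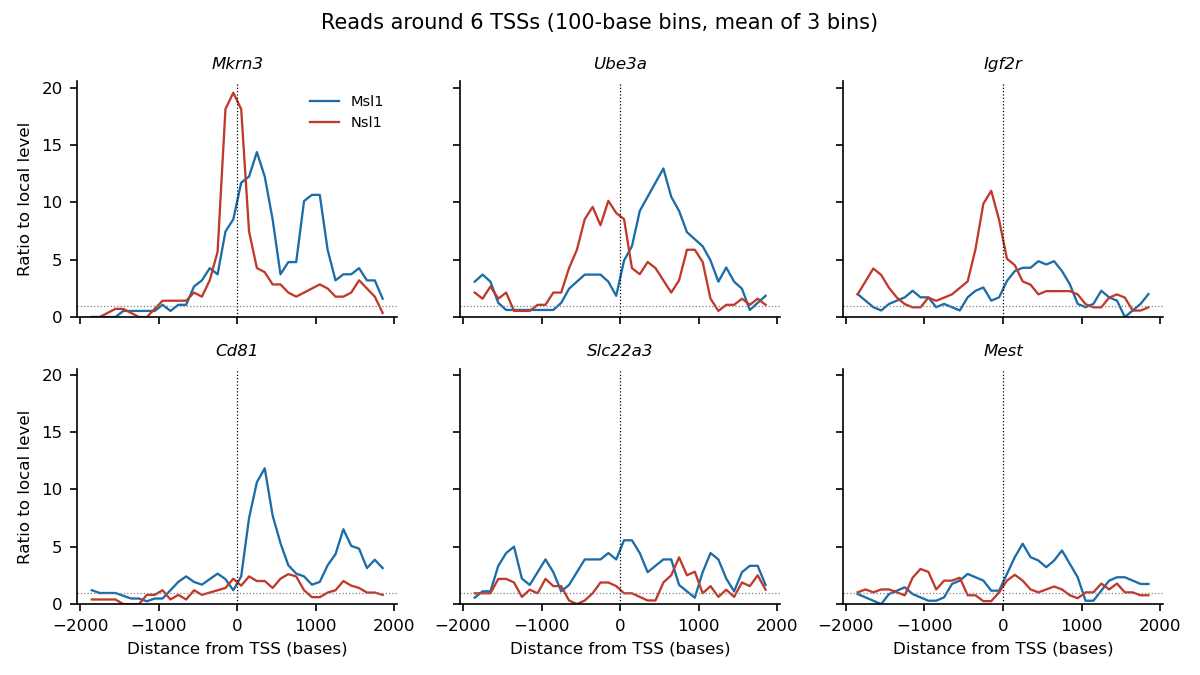
Reads of Msl1 (blue) and Nsl1 (red) from 2 kb upstream to 2 kb downstream of 6 TSSs, in bins of 100 bases divided by the local level and averaged over 3 neighbouring bins. Nsl1 is highest just before the TSS of Mkrn3, Ube3a and Igf2r and Msl1 after it. At Cd81, Msl1 rises after the TSS and Nsl1 rises less, and at Slc22a3 and Mest the Msl1 signal spreads over several bins.

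Msl1 reached the threshold without Nsl1 at 8 of the 37 genes, and 11.9% of all genes did so. Cd81, a tetraspanin at the edge of the Kcnq1 cluster that is imprinted in the placenta, was the clearest of them. It had 71 Msl1 reads, the most of any imprinted gene, and a ratio of 5.15 (4.02 to 6.49), against 28 Nsl1 reads and a ratio of 1.69 (1.12 to 2.44). Over 2 kb on each side, and per read of each library, it had 2.90 (2.19 to 3.88) Msl1 reads for each Nsl1 read, where the median of the 32 imprinted genes with at least 100 reads there was 1.42 and that of all genes 1.28. A TSS of the gene R74862 lies 678 bases from that of Cd81. Against the mean of the genome the Msl1 ratio of Cd81 was 9.67 and its Nsl1 ratio 2.99. The 250 bases before the RefSeq start of Cd81 are shown as a CpG-rich promoter with Msl1 above the threshold and Nsl1 below it, again with CpGs in capitals.
Cd81 (chr7:150238405-150238654, plus strand): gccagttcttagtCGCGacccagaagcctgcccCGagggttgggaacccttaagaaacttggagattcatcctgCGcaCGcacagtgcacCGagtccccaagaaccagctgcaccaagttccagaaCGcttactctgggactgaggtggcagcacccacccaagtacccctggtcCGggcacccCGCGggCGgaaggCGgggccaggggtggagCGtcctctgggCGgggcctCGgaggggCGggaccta
With 16 CpGs, this stretch lies between Mkrn3 and Ube3a in CpG number.

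Slc22a3, an organic cation transporter of the Igf2r cluster that is imprinted in the placenta, had 25 Msl1 reads (ratio 4.17, 2.70 to 6.16) and 10 Nsl1 reads (ratio 0.94, 0.45 to 1.73). Sgce, the gene of epsilon sarcoglycan, had 34 and 13 reads, with ratios of 3.38 (2.34 to 4.73) and 1.11 (0.59 to 1.90). Peg10, a retrotransposon-derived gene needed for the placenta, had 32 and 15 reads, with ratios of 3.17 (2.17 to 4.48) and 1.28 (0.72 to 2.11). Sgce and Peg10 start 102 bases apart in opposite directions, so their windows hold nearly the same reads. Both are counted as genes in the counts given, and without Sgce and Usp29 the Msl1 count at the threshold was 10 instead of 11, and 9 instead of 10 among CpG-rich genes. Rasgrf1, a Ras exchange factor, had 26 Msl1 reads (ratio 3.14, 2.05 to 4.6) and 15 Nsl1 reads (ratio 1.29, 0.72 to 2.12). At Cd81, Slc22a3 and the promoter of Peg10 and Sgce the Msl1 and Nsl1 intervals did not overlap, and at Rasgrf1 they overlapped slightly. Over 2 kb on each side they did not overlap at any of these genes. Rasgrf1 had 2.59 (2.07 to 3.20) for Msl1 and 1.33 (1.02 to 1.70) for Nsl1 there.

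At the other 3 of these 8 genes both proteins were above the local level and their intervals overlapped. Peg3, a zinc finger gene of growth and maternal behaviour, had 35 Msl1 reads (ratio 3.62, 2.52 to 5.04) and 37 Nsl1 reads (ratio 2.98, 2.10 to 4.11), the latter just below the threshold. Magel2, a MAGE family gene of the Prader-Willi region, had 21 and 23 reads and ratios of 3.24 (2.01 to 4.96) and 2.39 (1.52 to 3.59). Ascl2, a basic helix-loop-helix factor of the trophoblast, had 37 and 34 reads and ratios of 3.17 (2.24 to 4.38) and 2.37 (1.64 to 3.32). Over 2 kb on each side, however, Ascl2 had an Msl1 ratio of 2.57 (2.13 to 3.08) and an Nsl1 ratio of 1.47 (1.17 to 1.82), and these intervals did not overlap.

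Nsl1 reached the threshold without Msl1 at Ndn, Impact and Zrsr1, or 3 of the 37 genes, and 12.3% of all genes did so. These 3 genes are paternally expressed, as are 22 of the 37. Ndn, a MAGE family gene of neurons, had 27 Nsl1 reads (ratio 3.65, 2.40 to 5.31) and 15 Msl1 reads (ratio 2.93, 1.64 to 4.84). Impact, a regulator of the Gcn2 kinase, had 45 Nsl1 reads (ratio 3.59, 2.62 to 4.80) and 19 Msl1 reads (ratio 2.26, 1.36 to 3.53), and with 0.63 (0.44 to 0.90) Msl1 reads for each Nsl1 read over 2 kb on each side it was the lowest of the 32 genes. Zrsr1, a splicing factor retrogene in an intron of Commd1, had 64 Nsl1 reads (ratio 3.23, 2.49 to 4.13) and 28 Msl1 reads (ratio 1.48, 0.98 to 2.14). Its intervals within 500 bases did not overlap, and those of Ndn and Impact did. Over 2 kb on each side the intervals of Zrsr1 overlapped too, with ratios of 2.21 (1.89 to 2.57) for Msl1 and 2.03 (1.73 to 2.37) for Nsl1. Zrsr1 lies in surroundings with 18.9 Msl1 reads per kb, and against the mean of the genome its Msl1 ratio was 3.82, while the Nsl1 ratio of Ndn was 2.88. Of the 3 genes, Impact alone was above 3 for Nsl1 and below it for Msl1 on both scales. A TSS of Commd1 lies 356 bases from that of Zrsr1, and the fullest Nsl1 window was centred 300 bases upstream of Zrsr1, so the reads of both starts cannot be told apart.

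**Figure D4:**
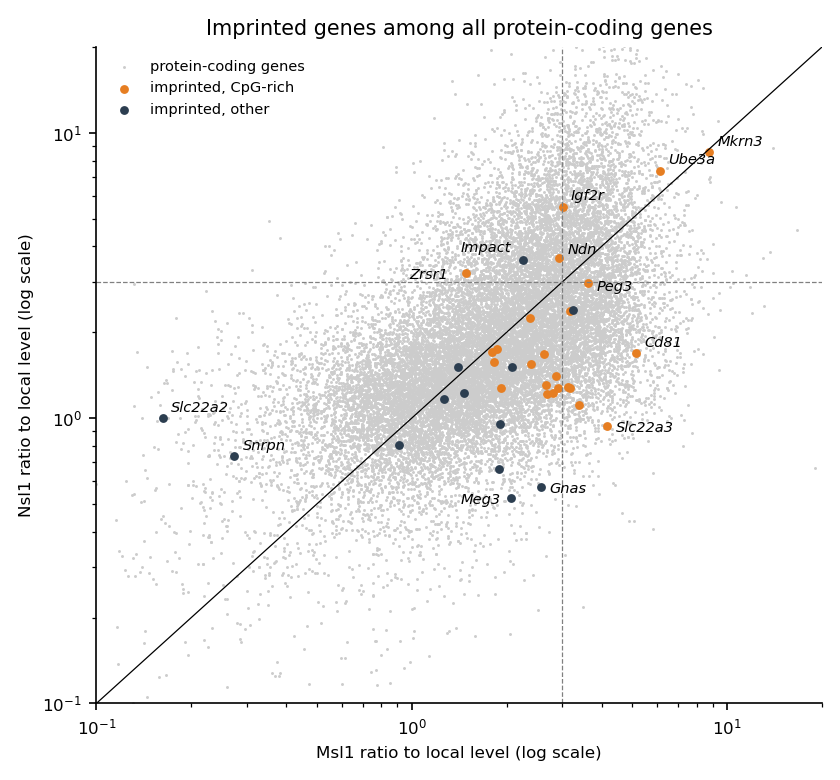
Msl1 against Nsl1 ratio (both axes logarithmic) for the 37 imprinted genes, coloured by CpG class, over the protein-coding genes in grey; genes outside the axes are not drawn. The line marks equal ratios and the dashed lines a ratio of 3; 29 imprinted genes lie below the line, and Mkrn3 and Ube3a stand at the upper right.

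Within the Prader-Willi region the values ran from among the lowest to the highest of the list. The surroundings there were poor in Msl1 reads and, apart from Magel2, not above the mean in Nsl1 reads, with 3.66 to 6.48 Msl1 reads and 5.42 to 9.62 Nsl1 reads per kb around the 6 genes, where the whole nuclear genome had a mean of 7.34 and 9.37. High ratios in this region thus stand on a low local level, for Msl1 and also for Nsl1 at Ube3a and Ndn, with 6.24 and 7.4 Nsl1 reads per kb around them, while the Nsl1 level around Mkrn3 was 9.37 reads per kb. Against the mean of the genome the Nsl1 ratio of Ube3a was 4.91, below those of Igf2r (6.94) and Zrsr1 (6.83). Peg12, a Frat family gene, had 16 Msl1 reads (ratio 2.67, 1.53 to 4.34) and 10 Nsl1 reads (ratio 1.31, 0.63 to 2.41). Snrpn, a spliceosomal Sm protein gene, had only 1 Msl1 read (ratio 0.27, 0.0069 to 1.52) and 4 Nsl1 reads (ratio 0.74, 0.20 to 1.89) at the upstream TSS that represents it. At its other annotated TSS, position 67150042, which is 135063 bases downstream and lies at the imprinting centre, 18 Msl1 reads gave a ratio of 3.47 (2.06 to 5.48) and 23 Nsl1 reads gave 3.24 (2.06 to 4.87). So both proteins were above the local level at the Snrpn imprinting centre, while the few reads at its upstream start gave intervals that include 1. The paper kept only uniquely aligned reads, and whether repeated sequence lowered the counts at the upstream start was not tested.

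In the Kcnq1 and Cdkn1c cluster, the genes of the list other than Cd81 and Ascl2 lay below a ratio of 3 for both proteins. Kcnq1, a potassium channel gene, had an Msl1 ratio of 2.68 (1.86 to 3.75) and an Nsl1 ratio of 1.22 (0.74 to 1.88). Cdkn1c, the cell cycle inhibitor p57, had 1.87 (1.20 to 2.78) and 1.75 (1.13 to 2.58), with 106 CpGs around its TSS. Phlda2, a growth restraint of the placenta, had 1.8 and 1.7, and Slc22a18 had 2.07 and 1.51. Within 500 bases the intervals of the proteins overlapped at these 4 genes, at Kcnq1 only narrowly. Over 2 kb on each side they did not overlap at Cdkn1c and Kcnq1. Cdkn1c had 2.16 (1.78 to 2.60) for Msl1 and 1.41 (1.12 to 1.76) for Nsl1. Kcnq1 had 1.83 (1.48 to 2.25) and 1.15 (0.91 to 1.45). Kcnq1ot1, the long noncoding RNA that silences this cluster on the paternal allele, had 22 Msl1 reads (ratio 1.78, 1.12 to 2.70) and 36 Nsl1 reads (ratio 2.84, 1.99 to 3.93) at its RefSeq start, which lies at position 150482452 of chromosome 7.

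The gene pair of fetal growth, H19 and Igf2, differed by promoter. H19, a maternally expressed long noncoding RNA, was near the local level at its TSS, with 14 Msl1 reads (ratio 1.46, 0.80 to 2.46) and 17 Nsl1 reads (ratio 1.23, 0.72 to 1.97). Igf2, the paternally expressed growth factor, has 6 annotated TSSs. Its TSS at position 149844709, the fifth in the direction of transcription, had 36 Msl1 reads (ratio 4.09, 2.87 to 5.66) and 9 Nsl1 reads (ratio 0.71, 0.33 to 1.36). The TSS with most transcripts, 1308 bases further downstream, had Msl1 and Nsl1 ratios of 1.90 and 0.96. At all 6 Igf2 TSSs the Nsl1 ratio lay below 1, between 0.40 and 0.96, while Msl1 ran from 1.14 to 4.09.

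Gnas, the gene of the stimulatory G protein alpha subunit, has 11 annotated TSSs whose transcripts come from different alleles. At the TSS of the paternal XL form, position 174123360 of chromosome 2, there were 40 Msl1 reads (ratio 2.57, 1.83 to 3.49) and 8 Nsl1 reads (ratio 0.57, 0.25 to 1.13). At the exon 1A start, position 174153071, which is a germline methylated promoter active on the paternal allele, there were 29 Msl1 reads (ratio 2.03, 1.36 to 2.92) and 44 Nsl1 reads (ratio 3.40, 2.47 to 4.56). Yet at the next major start, that of the alpha subunit itself at position 174155507, both proteins were at or below the local level, with 12 and 10 reads within 500 bases and ratios of 0.86 (0.45 to 1.51) and 0.78 (0.37 to 1.43). Over 2 kb on each side of it the Msl1 ratio was 1.65 (1.33 to 2.03). The starts of exon 1A and of the alpha subunit are both CpG-rich. The 250 bases before a RefSeq start of each are shown for comparison, with CpGs in capitals, and for exon 1A most of this stretch lies downstream of the annotated start named above.
Gnas exon 1A (chr2:174153000-174153249, plus strand): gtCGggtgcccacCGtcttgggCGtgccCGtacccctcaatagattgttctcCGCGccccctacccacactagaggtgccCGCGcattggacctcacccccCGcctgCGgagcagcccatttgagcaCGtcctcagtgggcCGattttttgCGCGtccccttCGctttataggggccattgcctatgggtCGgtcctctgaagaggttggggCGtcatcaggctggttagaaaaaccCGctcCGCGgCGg
Gnas alpha subunit (chr2:174155257-174155506, plus strand): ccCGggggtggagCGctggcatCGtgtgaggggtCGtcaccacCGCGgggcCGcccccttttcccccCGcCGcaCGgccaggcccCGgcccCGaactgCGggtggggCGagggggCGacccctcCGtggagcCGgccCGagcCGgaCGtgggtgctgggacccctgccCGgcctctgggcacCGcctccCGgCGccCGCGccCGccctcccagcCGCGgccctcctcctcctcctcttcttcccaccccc
The exon 1A stretch has 21 CpGs and the other 29.

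**Figure D5:**
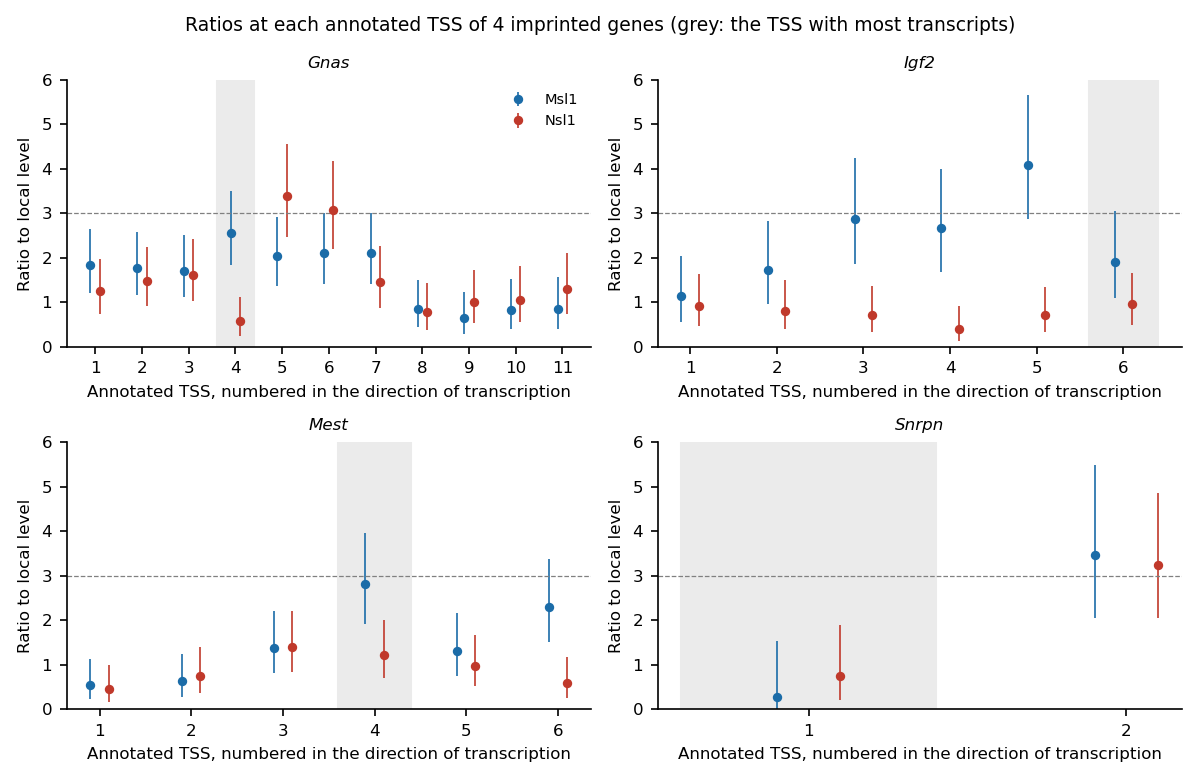
Msl1 (blue) and Nsl1 (red) ratios with exact 95% Poisson intervals at each annotated TSS of Gnas, Igf2, Mest and Snrpn, numbered in the direction of transcription; grey marks the TSS with the most transcripts. Nsl1 is highest at the fifth and sixth Gnas TSSs, Msl1 at the fifth Igf2 TSS, and both are high only at the second Snrpn TSS.

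In the Dlk1 and Dio3 cluster Msl1 was above the local level at Dlk1, Dio3 and Meg3, where the Nsl1 intervals at the TSS with the most transcripts included 1. Dlk1, a Notch ligand family gene, had 27 Msl1 reads (ratio 2.88, 1.90 to 4.18) and 19 Nsl1 reads (ratio 1.41, 0.85 to 2.20), and its most upstream TSS had an Msl1 ratio of 3.39 (2.32 to 4.78) and an Nsl1 ratio of 1.63 (1.02 to 2.47). Dio3, which inactivates thyroid hormone, had 26 and 16 reads with ratios of 2.91 (1.90 to 4.27) and 1.27 (0.73 to 2.07). Meg3, the maternally expressed long noncoding RNA, had 27 Msl1 reads (ratio 2.06, 1.36 to 3.0) and 7 Nsl1 reads (ratio 0.52, 0.21 to 1.08), the lowest Nsl1 ratio of the list. Rtl1, a retrotransposon-derived placental gene, was near the local level with ratios of 0.91 and 0.80. Within 500 bases, only at Meg3 did the intervals of the antibodies not overlap. Over 2 kb on each side they overlapped at Meg3, with ratios of 1.41 (1.11 to 1.77) and 1.03 (0.78 to 1.34). They did not overlap there at Dio3, with 2.19 (1.73 to 2.73) and 1.21 (0.93 to 1.56).

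The promoters that receive methylation in a germ line were looked at as a group. In the list used here they are assigned to 12 of the 37 genes, all paternally expressed apart from Gnas. At the TSS with the most transcripts these 12 genes had median ratios of 2.47 for Msl1 and 1.41 for Nsl1, and the other 25 genes had 2.67 and 1.41. For Snrpn and Usp29 that TSS is not the germline methylated promoter. With these 2 genes taken at the starts that lie there, the medians of the 12 were 2.72 and 1.63. Among the 12, Mest, a hydrolase fold gene of the mesoderm, had 32 Msl1 reads (ratio 2.81, 1.92 to 3.96) and 16 Nsl1 reads (ratio 1.23, 0.70 to 1.99). Its level was taken over the sequenced bases alone, since 39.2% of its surroundings is an assembly gap. The first Mest TSS, 14506 bases upstream, had 7 Msl1 and 6 Nsl1 reads with ratios of 0.54 and 0.45. Nnat, a brain proteolipid, had 2.62 (1.78 to 3.72) and 1.68 (1.08 to 2.50), Nap1l5, a nucleosome assembly retrogene, 2.38 and 1.55, and Plagl1, a zinc finger factor, 1.83 and 1.58. Usp29 had ratios of 1.88 and 0.66 at its annotated TSS and of 3.0 and 2.84 at its RefSeq start beside Peg3, where the reads of Peg3 are shared.

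A sequence found often in this group is TGCCGC, the letters that Zfp57 is known to recognise when methylated. Within 500 bases of the TSS, on both strands, at least 3 copies were found at 5 of these 12 genes (41.7%), at 1 of the other 25 and at 4.18% of protein-coding genes. At least 5 copies were found at Mest, Plagl1, Nnat and Nap1l5, and at 0.446% of protein-coding genes. Mest had 10 copies, a number reached by 2 of 21729 protein-coding genes. Its last 250 bases before the TSS are shown. The capitals, GCGGCA, are these letters read on the other strand.
Mest (chr6:30687803-30688052, plus strand): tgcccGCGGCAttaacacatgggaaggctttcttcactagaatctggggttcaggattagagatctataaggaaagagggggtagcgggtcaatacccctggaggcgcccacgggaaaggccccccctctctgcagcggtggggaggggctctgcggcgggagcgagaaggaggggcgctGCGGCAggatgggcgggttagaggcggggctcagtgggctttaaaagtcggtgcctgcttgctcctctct
Here they occur 2 times, a number reached by 0.882% of RefSeq promoters in the same stretch. The 4 genes with at least 5 copies had Msl1 ratios from 1.83 to 2.81 and Nsl1 ratios from 1.23 to 1.68.

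Paternally and maternally expressed genes were not separated by either protein. The median Msl1 ratio was 2.65 (quartiles 1.89 and 3.09) at 22 paternally expressed genes and 2.07 (1.82 and 3.13) at 14 maternally expressed genes. For Nsl1 the medians were 1.36 (1.18 and 2.35) and 1.51 (1.22 and 1.73). Msl1 reached the threshold at 6 of 22 and 5 of 14 genes, and Nsl1 at 4 of 22 and 2 of 14, where the shares of all genes were 24.0% and 24.3%. No difference of these 4 shares from all genes is claimed, since genes of a shared cluster are not independent. The ranges overlapped almost fully, from 0.27 to 8.79 and from 0.16 to 6.11 for Msl1. The order of the medians was reversed in 1 of 11 alternative settings for Msl1 and in 4 of 11 for Nsl1, so no direction is given.

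The remaining genes were below the threshold for both proteins. Grb10, an adaptor that restrains insulin signalling, had ratios of 1.92 (1.24 to 2.83) for Msl1 and 1.28 (0.78 to 1.97) for Nsl1 at a start with 149 CpGs, the most of the list. Inpp5f, an inositol phosphatase gene whose imprinted form starts inside it, had 2.37 and 2.25 at its first TSS and 1.87 and 1.95 at its last. Zim1 had 1.40 and 1.51, and Ddc, which makes dopamine and serotonin, had 1.26 and 1.17. Slc22a2, a cation transporter, had 1 Msl1 read, the fewest together with Snrpn, and 10 Nsl1 reads, with ratios of 0.16 (0.0041 to 0.90) and 1.00. Of the 72 further annotated TSSs of the list, 4 reached a ratio of 3 for Msl1, at Igf2, Snrpn, Dlk1 and Dio3, and 3 for Nsl1, at Snrpn and at Gnas exon 1A, which is annotated with a pair of starts. Of such further TSSs of all protein-coding genes, 12.6% reached 3 for Msl1 and 7.71% for Nsl1. Downstream of the TSS, from 500 to 2000 bases, reads per kb were divided by those within 500 bases. This was done at the 15 imprinted genes with at least 20 reads of each protein within 500 bases. The median was 0.686 for Msl1, against 0.688 for all genes, and 0.568 for Nsl1, against 0.391 for all genes. The local level was not subtracted, so these values also depend on how far the TSS stands above its surroundings.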

How the data were processed

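ChIP-seq reads of Msl1 and Nsl1 were used. Per the labels, the authors used CASAVA 1.8.2 and Bowtie 0.12.7 with the mm9 genome, and 1 line per aligned read was deposited. The deposited alignment score, always 255, holds no measurement. Reads that repeated a position and strand (18.3% for Msl1, 4.56% for Nsl1) were counted once, and mitochondrial reads were left out. Read starts were moved by 103 bases (Msl1) and 64 bases (Nsl1), the middle of the fragment length from the strand cross-correlation. TSSs came from the GENCODE M1 annotation of mm9, joined when within 100 bases, and 31 imprinted genes had promoters in the RefSeq table of GRCm38, which were matched to mm9. The level from 5 to 50 kb was taken per sequenced base. Protein-coding genes with at least 100 reads in this region in both libraries served as background. Counting was tested on simulated reads. Intervals are exact Poisson or binomial. Python 3.11.15, numpy 2.4.6, pandas 2.3.3, scipy 1.17.1 and matplotlib 3.10.9 were used.

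The imprinted genes, the gene lists and the settings were chosen with earlier results of these data known. Full values are given for genes at a ratio of 3 in either library, genes with differing TSSs, and the noncoding RNAs, and the others are given briefly. Expressed allele, germline methylation and gene roles are textbook knowledge, not measured here. Alternatives were all reads kept, other surroundings, windows, TSSs, shifts and thresholds, and subsets of the list.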

Additional observations from a re-analysis of the deposited data

How the results depend on the processing

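No paired analysis was possible because each antibody has 1 library, so no library could be left out either. The CpG-rich comparison for Nsl1 kept the order of its medians in 9 of 9 other settings: the median of CpG-rich imprinted genes stayed below that of CpG-rich genes. All of these settings use the same libraries, and some only took genes off the list or changed the read shift, so they are not independent checks. The TSSs with the most reads or the most CpGs had no value for CpG-rich genes to compare with. The share at the threshold did not keep its order, since with a window of 2000 bases on each side 2 of 24 CpG-rich imprinted genes and 7.26% of CpG-rich genes reached 3. For Msl1 the median of CpG-rich imprinted genes was below that of CpG-rich genes in 2 of 9. The counts at the threshold depended on the settings. For all 37 genes, the Msl1 count of 11 became 6 with all reads kept and 22 against the mean level of the genome. It became 3 with a window of 2000 bases on each side. At a threshold of 2 it was 24 (46.5% of all genes), and at a threshold of 4 it was 4 (10.1%). Without genes imprinted in some tissues or isoforms it was 7 of 28. The Nsl1 count of 6 became 2 with the window of 2000 bases, where 3.87% of all genes reached 3. It became 10 at a threshold of 2 (41.9%) and 3 at a threshold of 4 (15.5%). For the 24 CpG-rich genes, the Msl1 count of 10 became 6 with all reads kept (44.7% of CpG-rich genes). Against the mean of the genome it was 19 (76.0%), and with the wider window 3 (12.4%). It was 19 at 2 (77.0%) and 4 at 4 (19.6%). Without the genes imprinted in some tissues or isoforms it was 6 of 18. The Nsl1 count of 5 became 2 with the wider window. It became 8 at 2, where 66.9% of CpG-rich genes were counted, and 3 at 4, where 28.6% were. All genes moved too: against the mean of the genome 43.2% reached 3 for Msl1, and with the wider window 6.36%, but with all reads kept the share was 24.0%, as before. Against the mean of the genome the Msl1 medians were 3.54 for all imprinted genes and 3.75 for the CpG-rich ones. They were 4.02 for those with a germline methylated promoter and 3.41 for the others. The Nsl1 medians were 2.13 for all imprinted genes and 2.13 for those without such a promoter. On this scale all protein-coding genes had medians of 2.59 for Msl1 and 2.24 for Nsl1. With the wider window the Msl1 medians were 1.89 for all imprinted genes, 2.19 for the CpG-rich ones and 1.63 for those with a germline methylated promoter. The cause of these changes was not tested. The TSS with the most CpGs, the list without Mest, the CpG classes, the germline starts of Snrpn and Usp29 and the genome level per gene were added after the data were seen. Of 213 values under alternatives, 186 moved by less than the spread or the interval of the value. Windows held between 1 and 80 reads, so a ratio of 3 on about 20 reads cannot be told from 2.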

Other observations

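Genes beside or around the imprinted genes were measured for comparison, from a list of 17 host and neighbour genes, some of which are themselves imprinted in some tissues. Msl1 reached a ratio of 3 at 6 of the 17, against 24.0% of all protein-coding genes, and Nsl1 at 5 of the 17, against 24.3%. The 6 genes for Msl1 were Blcap (5.23), Herc3 (5.2), Atp10a (5.15), Cobl (3.63), Begain (3.03) and Casd1 (3.01). Tssc4, in the Kcnq1 cluster, had an Nsl1 ratio of 8.15 with an Msl1 ratio of 2.27, and Nap1l4, at the edge of the same cluster, had 4.75 and 2.15. Blcap, in whose intron Nnat lies, had 3.97 for Nsl1 and 5.23 for Msl1 at its own main TSS. Commd1, the host of Zrsr1, had 4.89 and 1.34, and Copg2, beside Mest, had 3.37 and 2.18.

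Among other noncoding RNAs of the clusters, Nespas, antisense in the Gnas locus, had ratios of 2.23 for Msl1 and 2.21 for Nsl1, Airn, in Igf2r, had 1.27 and 0.92, Rian had 1.42 and 0.72, and Mirg had 0.79 and 1.19. Of 7 factors known to set or keep imprints, 1 reached the threshold for each protein, where 24.0% and 24.3% of all genes did: Uhrf1 for Msl1, with 3.61, and Dnmt1, the maintenance DNA methyltransferase, for Nsl1, with 4.37. Zfp57, which binds methylated imprinting control regions, had 2.65 and 1.82. These values are from 1 library per antibody, and the differences between genes were not tested.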
